A study of Mus musculus with 36 samples.

Results

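Dcpp1, Dcpp2 and Dcpp3 were described in mouse salivary glands of a tumor model. They were taken by name, as 3 of the 31102 gene symbols found in the single-cell tables. Each gene was measured in 26 Drop-seq libraries, in 4 CITE-seq RNA libraries and in 2 bulk libraries. The double-mutant mice carried a β-catenin gain-of-function and a Bmpr1a loss-of-function allele, both switched on by K14-Cre, a recombinase driven from a keratin promoter of basal epithelial cells, and they developed squamous cell carcinoma of the salivary gland. The control mice carried K14-Cre with a Cre-inducible EYFP reporter. All mice were of the C57BL/6 strain, and each library came from 1 submandibular gland. For Drop-seq the live cells were sorted and fixed in methanol, for CITE-seq the live cells were used without delay, and bulk RNA was taken from the whole gland. The Drop-seq groups were 6 control and 7 double-mutant glands at postnatal day 40 (P40), and 6 control and 7 double-mutant glands at P90, from females and males. The CITE-seq groups were 2 control and 2 double-mutant glands at P70, and for bulk RNA-seq there was 1 control gland (P70) beside 1 double-mutant gland (P100).

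Dcpp stands for demilune cell and parotid protein. The genes encode small secreted proteins with a jacalin-like lectin fold, a fold that binds sugars. Demilunes are caps of serous cells on the mucous end pieces of the sublingual gland, a gland that lies against the submandibular gland and whose mucous cells make the gel-forming mucin Muc19. Saliva proteins of serous cells include lectins, antibacterial proteins and lipocalins, while the ducts of the rodent gland add growth factors and kallikreins.

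Between 606 and 1147 cells per Drop-seq gland passed the filters, with 650301 to 6994504 UMIs (unique molecular identifiers, each standing for 1 captured RNA molecule) per gland. The 4 CITE-seq glands held 670322 to 2205865 UMIs. Only 20 cell barcodes were found in more than 1 library, at most 1 for any pair of libraries. The libraries double-mutant P40 R1, labelled male, and double-mutant P90 R5, labelled female, had sex-linked genes that went against their labels, as did CITE-seq control R1, labelled male. All levels are given as CPM, counts per 1000000 UMIs of the gland or cell class.

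The 3 genes lie side by side on the plus strand of chromosome 17 (GRCm38), Dcpp1 at chr17:23880876-23882853, Dcpp2 at chr17:23880880-23900788 and Dcpp3 at chr17:23917458-23919441. An annotated transcript of Dcpp2 starts inside the first exon of Dcpp1. Their main transcripts were 89.95% to 93.35% alike, so reads can be shared between them. Of all windows of 64 bases, the length of the cDNA read, in the last 300 bases of the transcript, 55.7% were found only in Dcpp1, 65.4% only in Dcpp2 and 55.3% only in Dcpp3. Values of the single genes are therefore less certain than their sum. The 120 bases before each start site are shown because the levels of the 3 genes followed one another over the glands, and their 250 upstream bases were 93.2% to 96.4% alike. The sequences are from RefSeq on GRCm38.p6, plus strand, at chr17:23880756-23880875, chr17:23898602-23898721 and chr17:23917338-23917457 in the order of the genes, and all 3 genes had an entry. Capitals mark the letters TATAAG, a match to the TATA box, the element that places the start of transcription in many strongly expressed genes.
Dcpp1: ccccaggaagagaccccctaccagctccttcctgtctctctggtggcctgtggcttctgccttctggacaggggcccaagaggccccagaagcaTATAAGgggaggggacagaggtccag
Dcpp2: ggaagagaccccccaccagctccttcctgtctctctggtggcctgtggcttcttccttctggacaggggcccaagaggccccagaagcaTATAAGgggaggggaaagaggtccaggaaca
Dcpp3: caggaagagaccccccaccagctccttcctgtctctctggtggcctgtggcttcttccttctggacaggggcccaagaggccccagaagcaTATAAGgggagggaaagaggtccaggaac
The match began 26, 31 and 29 bases before the annotated start of Dcpp1, Dcpp2 and Dcpp3. Of 32851 promoters, 6.648% held these letters on either strand within 250 bases, and 1.138% held them on the gene's own strand within the last 40 bases. A match of letters is a description of the sequence and not a site shown to be used.

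The Dcpp genes were among the strongest signals of some glands and almost missing from others of the same genotype and stage. Dcpp1 stood at 20.3 CPM in the lowest, 38071 CPM in the median and 70022 CPM in the highest control gland at P40. In controls at P90 the lowest, median and highest values of Dcpp1 were 116, 1002 and 56111 CPM. In double-mutant glands Dcpp1 ran from 2.70 over a median of 39718 to 66657 CPM at P40. At P90 it ran from 8.69 over a median of 5472 to 29274 CPM in double-mutant glands. Every group thus spanned more than 100-fold, and all 4 groups overlapped.

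Dcpp2 and Dcpp3 spread over the same range. Dcpp2 had a lowest, median and highest level of 0.860, 57382 and 87088 CPM in controls at P40, and of 5.70, 757 and 46554 CPM in controls at P90. In double-mutant glands its median was 43028 CPM at P40, with a highest value of 55759 CPM, and 6214 CPM at P90, with a highest value of 43063 CPM. It had 0 UMIs in double-mutant P40 R1, where 3 UMIs would be 1.35 CPM, and in double-mutant P90 R1, where 3 UMIs would be 0.841 CPM. Dcpp3 ran from 0.860 over 42576 to 83527 CPM in controls at P40 and from 15.7 over 407 to 15644 CPM in controls at P90. Its double-mutant values had medians of 20569 CPM at P40 and 4895 CPM at P90, with highest values of 40999 and 52018 CPM. Over the 26 glands the levels of the 3 genes followed one another, with a Spearman rho of 0.958 between Dcpp1 and Dcpp2, 0.948 between Dcpp2 and Dcpp3 and 0.882 between Dcpp1 and Dcpp3. Since the genes share reads and libraries, these values are a description.

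**Figure D1:**
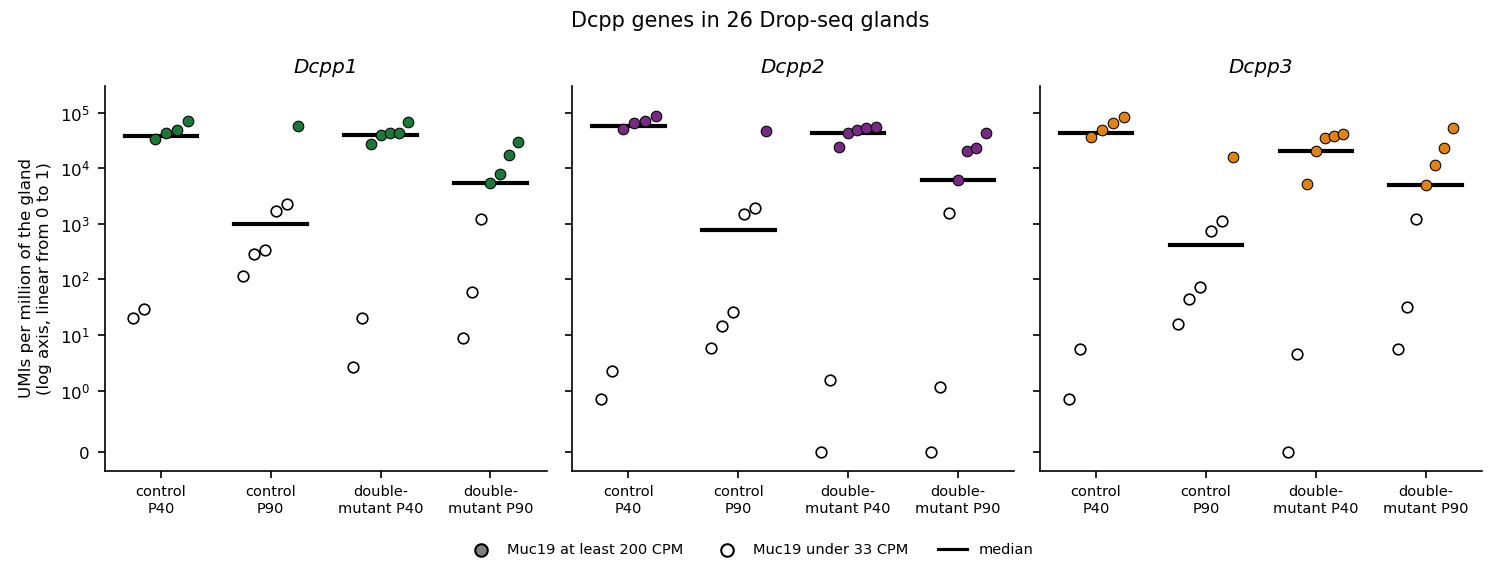
Levels of Dcpp1, Dcpp2 and Dcpp3 in CPM (log axis, linear from 0 to 1) in each Drop-seq gland of 4 groups, with 1 point a gland and a black line at the group median. Filled points are the 14 glands with at least 200.7 CPM of Muc19 and open points the 12 glands with at most 32.9 CPM, and within each group every filled point lies above every open one.

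The first question was whether the Dcpp genes differed between double-mutant and control glands, between stages or between sexes. None of the 3 genes was called in any of the 7 contrasts tested over the 26 glands with edgeR's quasi-likelihood test, at an adjusted p under 0.05. Over both stages Dcpp1 was at a log2 fold change of -0.94 (SE 1.43, double-mutant against control, edgeR adjusted p = 0.661). For Dcpp2 it was -0.66 (SE 1.602, edgeR adjusted p = 0.799) and for Dcpp3 -0.25 (SE 1.42, edgeR adjusted p = 0.920). The same contrast called 22.2% of the 11420 genes tested. The standard errors are wide, so these estimates leave room for changes of several fold in either direction. In a gland sum, fewer cells of a type and less RNA per cell cannot be told apart.

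At P40, where 1.36% of genes were called, the log2 fold changes of double-mutant against control glands were -0.70, -1.11 and -1.72 for Dcpp1, Dcpp2 and Dcpp3. At P90, where 8.07% were called, they were -1.19, -0.20 and 1.21. From P40 to P90 the control glands gave -1.99, -2.87 and -4.12 with SEs of 1.86, 2.33 and 2.23 (5.04% of genes called), and Dcpp3 had the lowest adjusted p of all whole-gland contrasts (edgeR, 0.345). The double-mutant glands gave -2.48, -1.95 and -1.19 from P40 to P90. In that contrast no gene was called by edgeR (0%), with 1122 of 11420 genes at an unadjusted p under 0.05 and 28 genes called by DESeq2, none of them a Dcpp gene. The interaction of genotype and stage gave -0.50, 0.91 and 2.93 (0.00876% called), and males against females 0.13, 0.32 and 0.15 (0.447% called). The sex values turned with the method, since the permutation test of log2(CPM + 1) gave differences of -3.49, -5.04 and -4.11 (permutation test, adjusted p = 0.484, 0.371 and 0.471) and the replicate number as a block gave -2.99, -4.55 and -3.14 (edgeR adjusted p = 0.434, 0.464 and 0.482). Controls at P40 and at P90 came from different batches, as numbered in the labels, so a stage difference among controls cannot be separated from one between batches. Within the 5 batches that held both genotypes, the mean difference in log2(CPM + 1) of the summed Dcpp genes, double-mutant minus control, was -0.98, 5.27, 5.92, -6.52 and 3.90, with no common direction. Batches 12 and 13 (5.92 and -6.52) set double-mutant glands of both stages against controls at P40 only, so their values mix genotype with stage. Batches 9 and 14 held 1 double-mutant gland each, and batch 13 held 1 control gland. When the 2 Drop-seq libraries were left out whose sex-linked genes went against the label, none of the 3 genes was called in any of the 7 contrasts either.

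The other secretory genes of the gland, grouped by lists of serous, mucous, parotid and duct products, moved in their own ways. Over both stages 5 of the 10 duct products tested fell in double-mutant glands and none rose, among them the growth factor Egf (log2 fold change -2.07, SE 0.55, edgeR adjusted p = 0.00994) and the kallikreins Klk1b9, Klk1b22 and Klk1b26 (-2.24, -2.65 and -3.12). Of 12 serous products tested, 4 rose and none fell, namely the protease inhibitor Slpi (4.95, SE 0.57), the iron-binding antibacterial lactotransferrin Ltf (8.56, SE 1.38), lysozyme Lyz1 (3.98, SE 0.55) and the WAP-domain gene Wfdc18 (1.87, SE 0.61). Of all 11420 genes tested, 1701 rose and 835 fell over both stages (22.2% called). These are sums over all cells of a gland and do not show which cells changed. The paper lists Slpi among genes of its Ig-producing plasma cells and Wfdc18 among those of its luminal Clu+ tumor cells. In control glands the paper found Wfdc18 to be specific to excretory and intercalated ducts. Bpifa2, parotid secretory protein, was at -1.18 (SE 1.25), and the acinar product Prol1 at -1.20 (SE 0.47, edgeR adjusted p = 0.0644). None of 5 mucous and none of 2 parotid products tested was called. The median log2 fold change was -2.01 for the duct list, -0.06 for the serous list and 0.53 for the mucous list, beside 0.04 for all genes tested. Smgc, a product of the neonatal gland and of intercalated ducts, was at -0.54 (SE 1.03) and Klk1 at -1.23 (SE 0.52), both short of the threshold. In the sex contrast 6 of the 10 duct products were higher in males, including Egf at 3.70 and Ren1, the renin gene, at 5.10. Cst10, a cystatin on the parotid list and a leading gene of the cluster with most Dcpp, fell from P40 to P90 in controls by 4.87 on the log2 scale (SE 1.37, edgeR adjusted p = 0.0375).

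Muc19 split the glands into a high and a low set, and the Dcpp genes followed that split. In 14 glands Muc19 lay between 200.7 and 6560 CPM, and in the other 12 between 0 and 32.9 CPM. The summed Dcpp level lay between 16581 and 222565 CPM in the 14 glands (median 124116 CPM), and between 2.70 and 5215 CPM in the 12 (median 101 CPM). Dcpp RNA made up 1.66% to 22.3% of all UMIs in the first set and at most 0.521% in the second. The high set held 4 of 6 controls at P40, 1 of 6 controls at P90, 5 of 7 double-mutant glands at P40 and 4 of 7 at P90. Cells of a mucous-like cluster led by Muc19 were found in all 14 glands, 12 to 137 in each and 574 in all, and only 3 such cells in the other 12. Over the whole mucous list 7 of 9 genes had a UMI, with Tff2 and Muc5b at 0, and its summed level ran from 282.8 to 6915 CPM in the high set and from 48.1 to 192 CPM in the low set. Without Muc19 the list summed to 68.4 to 355 CPM in the high set and 46.9 to 159 CPM in the low set, so that the ranges overlapped. How much sublingual tissue each sample held was not measured, and its part in the Dcpp levels was not tested.

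Within each set of glands no correlation of Dcpp with Muc19 passed the test. In the 14 glands Pearson's r of the log2(CPM + 1) values was -0.40 (permutation p = 0.157, adjusted over 4 relations 0.214) and Spearman's rho -0.43 (permutation p = 0.127, adjusted 0.169), and r was -0.09 (permutation p = 0.784) without the 2 glands farthest from the median of Muc19. With all deposited barcodes rho was -0.54 (permutation p = 0.0497, adjusted 0.0995). In the 12 glands r was 0.05 (permutation p = 0.867, adjusted 0.867) and rho -0.04 (permutation p = 0.917, adjusted 0.917), and r without 2 glands was -0.10. Controls P40 R3 and R4 were the glands richest in Dcpp, with 222565 and 186210 CPM, at 216 and 343 CPM of Muc19. The gland richest in Muc19, double-mutant P90 R6 with 6560 CPM, held 112534 CPM of Dcpp.

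In the low set 3 glands had over 1000 CPM of Dcpp, and there the level came from single cells. In control P90 R6 1 cell carried 8965 of the gland's 9071 Dcpp UMIs, and in control P90 R1 1 cell carried 8741 of 9114. In double-mutant P90 R7 3 cells carried 15416 of 15559. The richest cell of each of these glands lay in the Dcpp-high cluster described next and had no Muc19 UMI. The other 9 glands of the low set stayed at or under 442.6 CPM.

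Which cells carried the RNA was asked with a clustering of 23346 cells in which the 3 Dcpp genes were held out. Of 31 clusters, 1 held most of the Dcpp RNA, with 1526 cells from all 26 libraries and 526076 CPM of Dcpp. Its leading genes were Mup4 and Mup6, lipocalins of the major urinary protein family, Bpifa2, Cst10, the potassium channel subunit Kcne1, the bacterial cell wall sensor Pglyrp1, B3galt5, Wfdc18, Sod3 and Ntrk2. Of the 5 genes listed as demilune markers, Bpifa2 and Wfdc18 were among these leading genes and Wfdc12, Lpo and Car6 were not. The demilune list also holds genes of acinar and duct cells and by rule gave no cluster its name. The cluster is called Dcpp-high and carries no cell type name, and a demilune identity was not tested. Pooled over its cells, Dcpp1 stood at 168597 CPM, Dcpp2 at 204064 CPM and Dcpp3 at 153415 CPM. Doublets were not removed by a caller.

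The cells of the Dcpp-high cluster fell into a rich and a poor kind with few cells between. In 994 of its 1526 cells the Dcpp genes made up at least 20% of UMIs, in 516 they made up under 5%, and in 16 the share lay between. In the glands of the high set 989 of 1277 cells were rich, and in the low set 5 of 249. Over all clusters 1495 cells were rich, with a median of 72.2% of their UMIs from the 3 genes and a median of 3096 Dcpp UMIs. The cluster held 66.5% of them. A further 221 lay in other unnamed clusters, 95 among acinar-like and 76 among mucous-like cells. Rich cells made up 2.23% to 28.2% of the cells of a gland in the high set, and 89.1% to 98.6% of the Dcpp UMIs of these glands were in rich cells.

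Rich and poor cells of the cluster differed in other secretory genes too. In the glands of the high set, with the Dcpp UMIs left out of the totals, Bpifa2 stood at 123408 CPM in rich and 2660 CPM in poor cells, Wfdc18 at 137186 and 9685 CPM, Pglyrp1 at 10531 and 116 CPM, and Mup4 at 5744 and 26.5 CPM. Prol1, on the acinar marker list, and Car6 and Wfdc12, on the demilune marker list, were the other way round. Prol1 stood at 3335 CPM in rich and 55511 CPM in poor cells, carbonic anhydrase Car6 at 7927 and 57520 CPM, and Wfdc12 at 2174 and 12770 CPM. Muc19 stood at 181 and 105 CPM and was seen in 9.10% of rich and 10.7% of poor cells. These values describe cells chosen by their Dcpp share and carry no test.

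Other genes had patterns like that of the summed Dcpp genes. Over the 26 glands, among 3540 genes reaching 20 CPM, the highest Spearman rho were those of Kcne1 (0.929), Bpifa2 (0.918), Mup4 (0.901), Mup6 (0.893) and Pglyrp1 (0.817), followed by BC048546, Mfsd4, the glycosyltransferase Mgat4a, the sugar-nucleotide enzyme Gnpnat1 and Muc19 (0.679). Over the 31 clusters the highest Pearson r of log2 levels were those of Bpifa2 (0.956), Mup6 (0.881), Pglyrp1 (0.778), the transcription factor Etv1 (0.733) and Mup4 (0.727), followed by BC048546, the folate receptor Folr1, the immunoglobulin transporter Pigr, 5330417C22Rik and Wfdc18 (0.686). Glands and clusters share libraries and may share free RNA, so these values rank genes and test nothing.

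In the 14 glands of the high set nearly every cell class carried some Dcpp RNA, at levels far under those of the Dcpp-high cluster. The median over glands of the median Dcpp UMIs per cell was 2571 in the Dcpp-high cluster, with a median over glands of 281 times the value in immune-like cells of the same gland. Myeloid immune-like cells, which are not secretory cells of the gland, had a median of 5 UMIs. Between 20.8% and 100% of immune-like cells of a gland carried at least 1 Dcpp UMI in the high set, and 0% to 9.22% in the low set. The other named classes had medians of 1.25 to 7 UMIs, and their ratio to the immune-like cells had medians of 0.64 to 1.78. Mucous-like cells, with a median of 5.25 UMIs and a ratio of 1.17, were among them. A median of a few UMIs per cell in these classes was therefore at the level of immune-like cells. The medians were not matched for depth, with a median of 5707 UMIs in acinar-like and 610 in myeloid immune-like cells. They also hide rich cells, such as 76 of the 574 mucous-like cells. Whether the few UMIs are background was not tested.

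**Figure D2:**
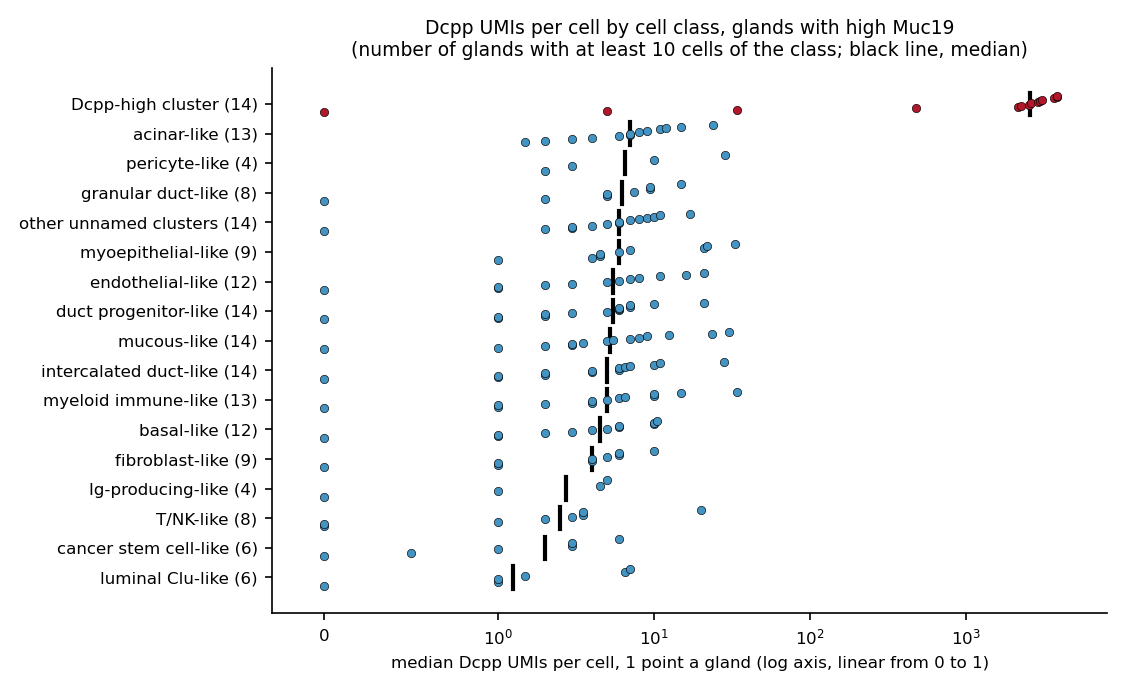
Median Dcpp UMIs per cell (log axis, linear from 0 to 1) by cell class in the glands with high Muc19, with 1 point for each gland that held at least 10 cells of the class and a black line at the median over glands. The Dcpp-high cluster has a median of 2571 UMIs, while the other classes have medians of 1.25 to 7 UMIs, among which the myeloid immune-like cells have 5.

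The Dcpp level of the immune-like cells rose with that of the other cells in the low set. There Pearson's r of the log2(CPM + 1) values was 0.84 (permutation p = 0.00118, adjusted over 4 relations 0.00472) and Spearman's rho 0.77 (permutation p = 0.00566, adjusted 0.0226) over 12 glands, and r was 0.80 (permutation p = 0.00382) without the 2 glands farthest from the median of x. The immune-like values of the low set rest on 67 Dcpp UMIs in all and lie near the floor. Immune-like cells had 0 Dcpp UMIs in controls P40 R1 and P90 R4 and in double-mutant P40 R1, P40 R5 and P90 R1. In control P90 R6 a single immune-like cell held 27 of 30. In the high set r was 0.40 (permutation p = 0.160, adjusted 0.214) and rho 0.47 (permutation p = 0.0943, adjusted 0.169) over 14 glands, and r was 0.43 (permutation p = 0.173) without 2 glands. A few immune-like cells carried much of this RNA in the high set, where 17 myeloid immune-like and 5 T/NK-like cells had at least 20% of their UMIs from Dcpp genes. Without the immune-like cells in the top 5% of UMIs of their gland, r in the high set was 0.59 (permutation p = 0.0213, adjusted 0.0426), and 0.40 (permutation p = 0.206) when the 2 farthest glands were left out as well.

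The share of cells in the Dcpp-high cluster was lower at P90 than at P40. At P40 it was 9.40% ± 7.81 of the cells of a gland (SD, n = 13), and by P90 it was 2.92% ± 2.14 (SD, n = 13), a difference of -6.48 percentage points (2-sided permutation test, p = 0.00404, adjusted over 7 comparisons 0.0283). Among controls the share went from 13.6% ± 9.21 (SD, n = 6) to 3.45% ± 2.14 (SD, n = 6) with stage (exact permutation test, p = 0.0216, adjusted 0.0758). Among double-mutant glands it went from 5.81% ± 4.34 (SD, n = 7) to 2.48% ± 2.20 (SD, n = 7) (exact permutation test, p = 0.0956, adjusted 0.134). In the 3 batches that held double-mutant glands of both stages the difference, P90 minus P40, was -2.90, -2.82 and -2.24 percentage points, with 1 gland at P90 in each. The first value, of batch 11, included both Drop-seq libraries whose sex-linked genes went against the label, P90 R5 and P40 R1. Whether their stage labels hold was not tested. Without these 2 libraries the stage difference over all glands was -7.07 points (permutation test, adjusted p = 0.0168). No batch held controls of both stages. Depth also differed with stage. The mean over glands of the median UMIs per cell was 3022.5 in controls at P40 and 1491 at P90. In double-mutant glands it was 1651 at P40 and 1071 at P90. Cells of the Dcpp-high cluster had a median of 4083.5 UMIs, and the part of depth in this share was not tested. By cells with at least 20% of their UMIs from Dcpp genes, a count added after the data were seen, the stage difference was -7.59 points and did not pass (permutation test, adjusted p = 0.0514).

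Genotype and sex gave no difference in this share that passed the test. Double-mutant glands held 4.15% ± 3.73 (SD, n = 14) and control glands 8.52% ± 8.29 (SD, n = 12) (permutation test, p = 0.0925, adjusted 0.134). The difference between genotypes was -7.77 points at P40 (exact permutation test, adjusted p = 0.134) and -0.97 points at P90 (exact permutation test, adjusted p = 0.502). Males and females differed by 0.03 points (permutation test, adjusted p = 0.985). The high set held 9 of 13 glands at P40 and 5 of 13 at P90, so the share moved with the split by Muc19, whose part in the stage difference was not tested.

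**Figure D3:**
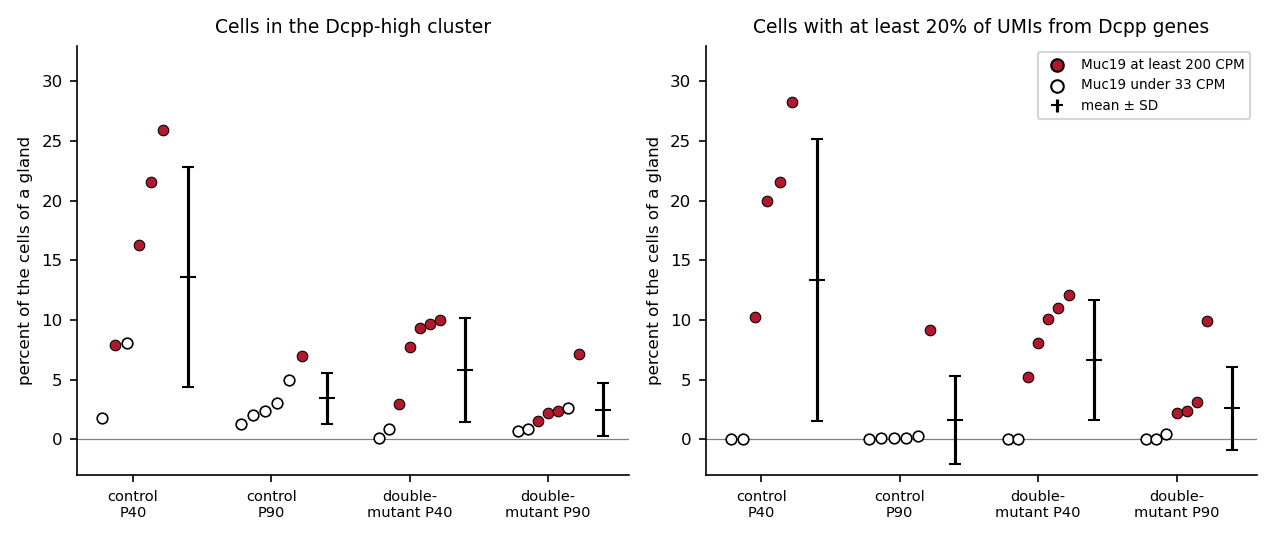
Percent of the cells of each Drop-seq gland that lay in the Dcpp-high cluster (left) or had at least 20% of their UMIs from Dcpp genes (right), by group, with 1 point a gland and the mean ± SD beside it. Filled points are the 14 glands with at least 200.7 CPM of Muc19, and the share of rich cells reaches 28.2% among them and stays near 0 in the open points.

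Among cells of the Dcpp-high cluster no Dcpp gene passed the test between genotypes or stages. In glands with at least 10 such cells, edgeR gave log2 fold changes of 1.06 (SE 1.50), 0.90 (SE 1.49) and 0.98 (SE 1.44) for Dcpp1, Dcpp2 and Dcpp3 in double-mutant against control glands (edgeR adjusted p = 0.880, 0.894 and 0.884). That contrast called 1.24% of 885 genes tested. The controls kept included P40 R1 and R5 and P90 R1, R2, R5 and R6 of the low Muc19 set. In each of them the median cell of the cluster had 0 Dcpp UMIs. Of the low set, P90 R7 was the only double-mutant gland kept. The genotypes were thus compared over unlike mixes of the high and low sets, whose part in these values was not tested. From P40 to P90 the values were -1.16 (SE 1.27), -1.39 (SE 1.33) and -1.71 (SE 1.35), with edgeR adjusted p of 0.612, 0.546 and 0.453, and 10.7% of genes were called. Cst10 fell in these cells from P40 to P90 by 1.88 on the log2 scale (SE 0.58, edgeR adjusted p = 0.0347), and Klk1b26 rose by 2.12 (SE 0.59, edgeR adjusted p = 0.0191). The 3 genes together stood at 526076 CPM here, so a change in them also moves the scaled level of other genes.

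The proportions of the 3 genes among the Dcpp UMIs fell into 3 sets of glands in the 14 glands with high Muc19. In 4 glands Dcpp1 led with 46.0% to 48.4% of the Dcpp UMIs, with 36.0% to 42.6% for Dcpp2 and 9.04% to 18.0% for Dcpp3. In 7 glands the genes were near even, at 30.3% to 33.6%, 36.4% to 39.9% and 28.2% to 30.3%. In 3 glands Dcpp3 led with 44.9% to 46.2%, with 37.4% to 39.0% for Dcpp2 and 15.4% to 17.7% for Dcpp1. The sets were separated by gaps of 10.2 and 14.6 percentage points in the Dcpp3 share, while the widest gap within a set was 4.19 points. Dcpp2 thus kept to a narrow band in all 14 glands, and Dcpp1 and Dcpp3 traded places.

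The middle set lay close to the midpoint of the outer sets. Its mean proportions were 32.3%, 38.2% and 29.5% for Dcpp1, Dcpp2 and Dcpp3, and the midpoint of the means of the outer sets was 31.6%, 38.7% and 29.6%. By the labels each set held control and double-mutant glands, both stages, both sexes, and glands of at least 3 batches. The middle set held 6 glands at P40 and 1 at P90. That 1 was double-mutant P90 R5, whose sex-linked genes went against its label, and whether its stage label holds was not tested. The set with Dcpp1 in the lead was control P90 R3 with double-mutant P40 R3, P40 R7 and P90 R3, and the set with Dcpp3 in the lead was control P40 R4 with double-mutant P90 R4 and P90 R6. The sets were drawn from these proportions after they were seen and carry no test. The labels give no litter or parent of the mice.

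The immune-like cells of each gland had proportions close to those of its rich cells. Their Dcpp1 share was 50% to 51.1% in the first set, 26.1% to 34.0% in the second and 12.5% to 21.4% in the third. Against the rich cells of the same gland it differed by -4.15 to 5.39 percentage points over the 14 glands, with a median size of 2.44 points. For Dcpp3 the difference was -7.03 to 2.34 points, with a median size of 1.92 points. The 22 immune-like cells that were themselves rich held most of this RNA, and without them 14717 of 72947 Dcpp UMIs were left, a count added after the data were seen. The Dcpp1 share of the remaining immune-like cells was 50% to 53.8%, 26.1% to 35.7% and 12.5% to 19.9% in the 3 sets. It differed from that of the rich cells by -4.15 to 7.31 points, with a median size of 2.62 points.

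Cells of 1 gland mostly kept the gland's proportions, but the third set was wider. Among rich cells with at least 300 Dcpp UMIs, the SD of the Dcpp1 share between cells of a gland was 2.09 to 3.70 points in the 4 glands of the first set, and 7.45 to 7.87 points in the 3 glands of the third set. In the second set it was 2.63 to 6.80 points with a median of 2.92 points, the highest being double-mutant P40 R6, where 1 cell had 92.4% Dcpp1. Counting error alone gives 0.735 to 2.08 points. In the third set the Dcpp1 share of single cells reached from 0% to 34.4%, and 327 cells were counted there. The SD of the Dcpp2 share in that set was 3.27 to 4.41 points and that of Dcpp3 4.85 to 7.03 points.

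**Figure D4:**
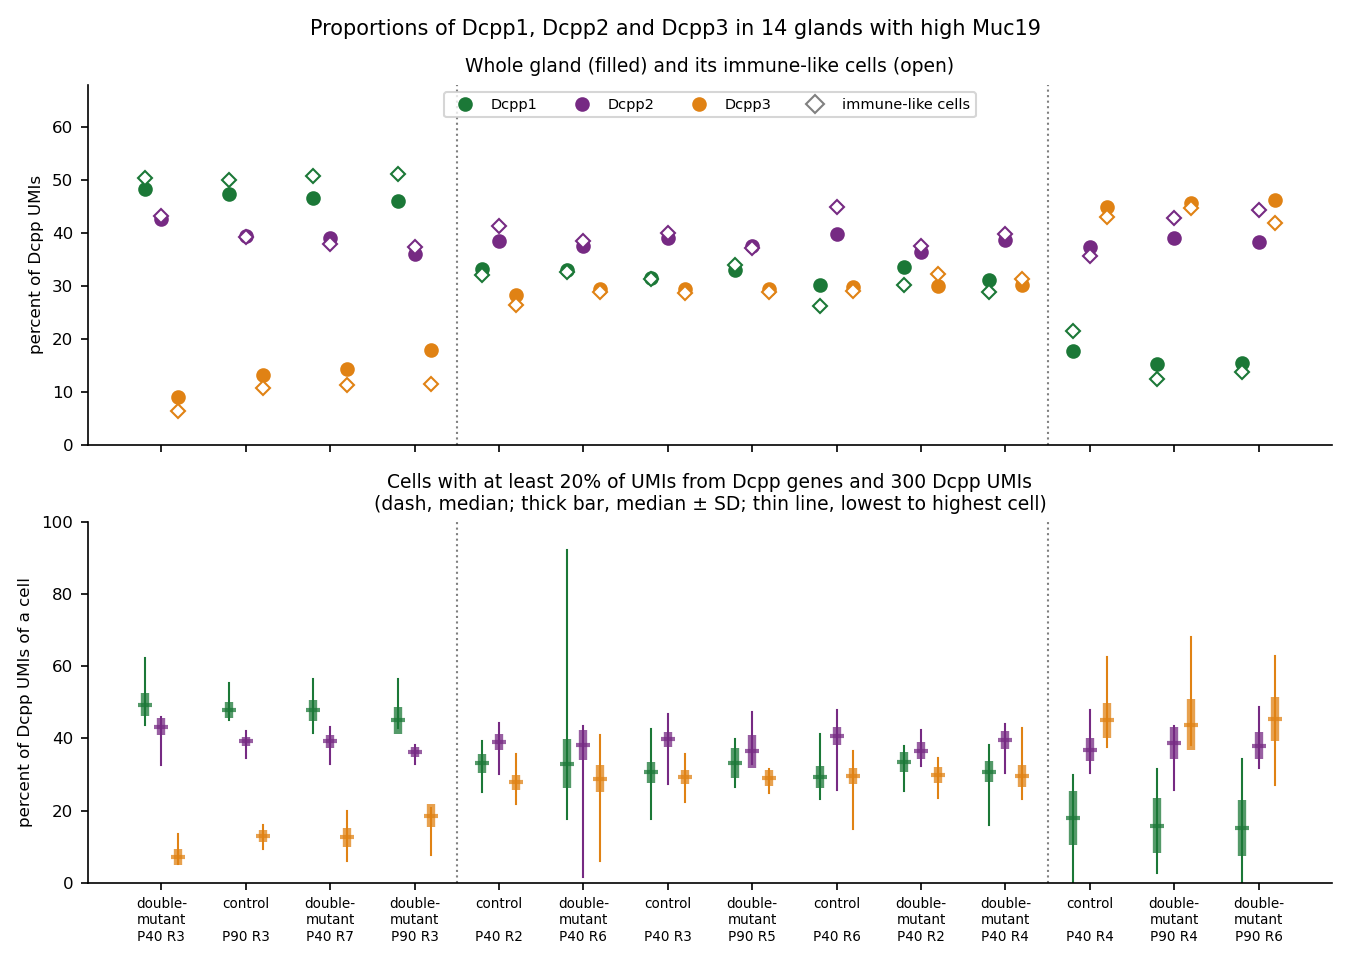
Percent of Dcpp UMIs from Dcpp1, Dcpp2 and Dcpp3 in the 14 glands with high Muc19, dotted lines parting the 3 sets of glands, for the whole gland and its immune-like cells (upper panel) and for single cells rich in Dcpp (lower panel, median, SD, lowest and highest cell). Dcpp1 falls from 46.0% to 48.4% in the left set to 15.4% to 17.7% in the right set while Dcpp3 rises, and Dcpp2 stays between 36.0% and 42.6%.

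Whether the share of Dcpp1 differed between groups was tested over the 22 glands with at least 100 Dcpp UMIs. At P90 it was 27.0% ± 11.9 (SD, n = 6) in double-mutant and 62.9% ± 20.6 (SD, n = 6) in control glands (exact permutation test, p = 0.00649, adjusted over 7 comparisons 0.0455). Of the 6 control glands at P90, 5 belonged to the low set, in which Dcpp1 made up to 84.4% of few UMIs. With glands of at least 30 Dcpp UMIs the difference was -27.0 points and did not pass (exact permutation test, adjusted p = 0.252). Over both stages the difference was -18.9 points (permutation test, p = 0.0302, adjusted 0.106), at P40 1.56 points (exact permutation test, adjusted p = 0.881), and no stage or sex contrast passed.

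In the 12 glands with low Muc19 the Dcpp-high cluster still held 33155 Dcpp UMIs, at 37.0%, 38.1% and 24.95% for Dcpp1, Dcpp2 and Dcpp3, of 34911 outside the intercalated duct-like class. Nearly all of these lay in the few cells of 3 glands given above, so cells with at least 1 Dcpp UMI were counted by class. Intercalated duct-like cells, a cluster led by Esp4, Smgc and Gstt1 with 4 of its 5 markers, carried a Dcpp UMI in 72 of 665 cells (10.8%, Wilson 95% interval 8.69% to 13.4%). Immune-like cells did in 26 of 1301 (2.0%, interval 1.37% to 2.91%) and all cells outside the class, immune-like cells included, in 382 of 9585 (3.99%, interval 3.61% to 4.40%). The median depth was 1187 UMIs in intercalated duct-like and 670.5 UMIs in myeloid immune-like cells. The mean share per gland was 12.4% ± 9.80 (SD, n = 12) in intercalated duct-like and 2.30% ± 3.17 (SD, n = 12) in immune-like cells, and it was higher in the former in 11 of 12 glands (exact permutation test by sign flips within glands, 2-sided p = 0.000977). With every cell thinned to 500 UMIs, which left out 40 intercalated duct-like and 351 immune-like cells, the shares were 7.84% and 1.16% (exact sign flips, p = 0.00391, higher in 9 of 12 glands and equal in 3). Against all cells outside the class the difference was 8.58 points (exact sign flips, p = 0.00293). This comparison was chosen after the data were seen.

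These duct-like cells held mostly Dcpp1. Of their 1218 Dcpp UMIs, 82.0% were Dcpp1, 5.67% Dcpp2 and 12.3% Dcpp3, whereas the Dcpp-high cluster in glands with high Muc19 held 32.0%, 38.8% and 29.2%. Control P90 R5 gave 655 of the 1218. In the glands with low Muc19 Dcpp1 also led in other classes. Its share was 80.0% of 130 UMIs in duct progenitor-like and 75.2% of 161 in granular duct-like cells. In myeloid immune-like cells it was 71.2% of 59 and in acinar-like cells 66.0% of 326. It was lower in basal-like (43.5% of 23) and luminal Clu-like cells (3.42% of 117). Most of the 72 intercalated duct-like cells had few UMIs, since 69 of them had under 100 with a median of 4. The remaining 3 cells had at least 100 UMIs each, up to 321, and lay in 1 gland, control P90 R5. Dcpp1 made up 82.4% of UMIs in the 69 cells and 81.5% in the 3. In double-mutant P90 R1, a luminal Clu-like cell carried 114 of the 145 Dcpp UMIs of the gland, and 110 of its UMIs were Dcpp3.

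**Figure D5:**
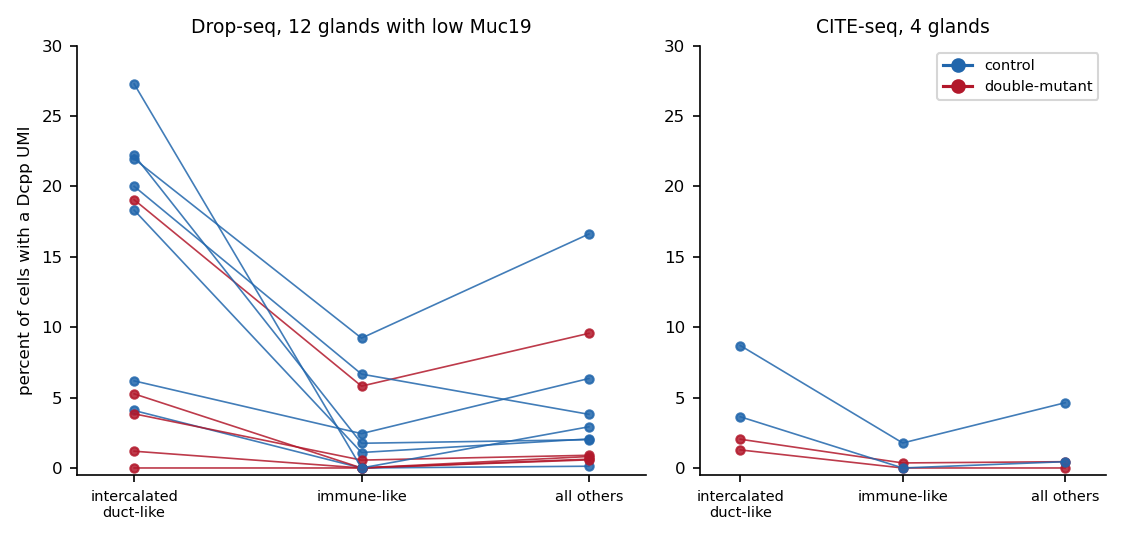
Percent of cells with at least 1 Dcpp UMI among intercalated duct-like cells, immune-like cells and all cells outside the intercalated duct-like class, with 1 line a gland, in the 12 Drop-seq glands with low Muc19 (left) and the 4 CITE-seq glands (right). In the left panel the intercalated duct-like cells lie above the immune-like cells in 11 of 12 glands and reach 27.3%, and in the right panel in 4 of 4 glands.

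The 4 CITE-seq glands at P70, with 0 to 6 Muc19 UMIs each, had low Dcpp levels, and in the 2 richest glands nearly all of it lay in a single cell. Control R1 held 2257 CPM of Dcpp1, 116 CPM of Dcpp2 and 413 CPM of Dcpp3, and control R2 held 13.6, 0 and 0.907 CPM. Double-mutant R1 held 6.35, 0 and 1.82 CPM, and double-mutant R2 held 13.4, 16.4 and 316 CPM. In control R1 1 intercalated duct-like cell carried 4771 of the 4872 Dcpp UMIs, of which 3855 were Dcpp1, and in double-mutant R2 1 intercalated duct-like cell carried 230 of 232, of which 210 were Dcpp3.

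Dcpp1 was called lower in double-mutant glands by CITE-seq, at a log2 fold change of -7.59 (SE 1.95, edgeR adjusted p = 0.0393), where 13.7% of 10058 genes were called. Dcpp2 was at -3.76 (SE 1.78, edgeR adjusted p = 0.184) and Dcpp3 at -1.17 (SE 1.77, edgeR adjusted p = 0.678). Without control R1 the value of Dcpp1 was -1.31 (edgeR adjusted p = 0.172), and without double-mutant R1 or R2 the adjusted p was 0.196 or 0.0896, so the call needed every library but control R2. Dcpp2 was also called without control R2 (edgeR, -4.81, adjusted p = 0.00410), and Dcpp3 was at 6.44 without control R1 (edgeR adjusted p = 0.127). Of the duct list 9 of 10 genes tested were called lower in the same contrast, and of the serous list 6 were lower and 4 higher of 11. Intercalated duct-like cells carried a Dcpp UMI in 8 of 228 cells (3.51%, Wilson 95% interval 1.79% to 6.77%) and immune-like cells in 4 of 897 (0.446%, interval 0.174% to 1.14%), higher in 4 of 4 glands (exact sign flips, p = 0.125, the smallest that 4 glands allow). Intervals here and above cover counting error only.

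The bulk libraries, with 1 gland each and no test, held few Dcpp reads. The control gland at P70 had 253 reads of Dcpp1, 97 of Dcpp2 and 4 of Dcpp3, or 7.33, 2.81 and 0.116 CPM, here per 1000000 assigned reads. The double-mutant gland at P100 had 177, 3 and 84 reads, or 5.10, 0.0864 and 2.42 CPM. Muc19 stood at 0.840 and 0.374 CPM. Dcpp1 led in both, with 71.5% and 67.0% of the Dcpp reads. Dcpp2 and Dcpp3 traded places, at double-mutant to control ratios of 0.0307 (exact 95% counting interval 0.00623 to 0.0925) and 20.9 (interval 7.86 to 78.4), and Dcpp1 was at 0.695 (interval 0.571 to 0.846). Of 14552 genes with at least 10 reads in either library, 17.2% lay past 2-fold. Genotype and day cannot be told apart in this pair.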

How the data were processed

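Per the labels and the study's methods, Drop-seq and CITE-seq reads were aligned with STAR to mm10 and counted as UMI counts per gene and cell barcode, and the authors deposited these raw counts. The deposited bulk counts are featureCounts 1.6.0 reads per gene, unstranded per the file header, with reads that map to several places left out. Columns of samples outside the series were 0. Cells with at least 100 genes and under 15% mitochondrial UMIs were kept (CITE-seq also under 2500 genes), leaving 23346 of 26987 Drop-seq and 2535 of 3095 CITE-seq barcodes. No doublet caller was run. Cells were clustered with scanpy 1.11.5 on 2000 variable genes without the Dcpp genes, with 30 principal components and Leiden resolution 1.0. Clusters were named from marker lists, at least 3 markers at 2-fold in 10% of cells. A name was withheld where the leading genes went against it, and the demilune list was not used as a name. UMIs summed per gland were tested with edgeR 4.0.16 (TMM, filterByExpr, quasi-likelihood, Benjamini-Hochberg over all genes tested), with 4 groups and sex as terms. DESeq2 1.42.0, other scalings, filters, batch, replicate block, left-out libraries and thinning were alternatives. Shares per gland were compared by permutation tests (exact under 10 glands a group, otherwise 100000 resamples). On simulated counts the genotype test, run on 10945 genes, recovered 77% of 2-fold and 97% of 4-fold changes, and the CITE-seq test, on 9481 genes, 10% and 77%. The changed genes were drawn at random among those above the median level. These shares do not carry over to the Dcpp genes, whose standard errors were wide. Replicate numbers were not used as pairs in the main tests. Of 37 same-numbered pairs, 14 correlated above 0.1, with a median correlation of 0.0496 beside -0.0224 for other numbers. The share above 0.1 was not computed for other numbers, so these values do not decide whether the numbers pair glands. The members and gene lists were chosen with earlier results of these data known. Named genes were the 3 members, list members past the threshold with 6 fixed ones (Muc19, Bpifa2, Wfdc18, Prol1, Smgc and Klk1), and the 10 most similar genes over glands and over clusters. The antibody counts of CITE-seq were not analysed here.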

Additional observations from a re-analysis of the deposited data

Results flagged for a closer look

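Of 24 sets of values, 6 measures in 4 groups of glands, 7 had a gland far from the others of its group by Dixon's criterion. For independent and normally distributed values chance alone gives about 1 in 20. The values here were not log-transformed and the measures of a gland go together, so that rate does not apply to them. Control P90 R3 stood above the other controls at P90 in Dcpp1 (56111 CPM, next 2230 CPM), Dcpp2 (46554 CPM, next 1883 CPM), Dcpp3 (15644 CPM, next 1101 CPM) and in the share of cells rich in Dcpp (9.19%, next 0.266%). It is the only control gland at P90 with at least 200.7 CPM of Muc19. Double-mutant P90 R6 stood above the other double-mutant glands at P90 in the share of cells in the Dcpp-high cluster (7.16%, next 2.65%) and in the share of rich cells (9.88%, next 3.15%), and it was also the gland with most Muc19. Among the controls at P40 with at least 100 Dcpp UMIs, control P40 R5 had the highest Dcpp1 share (72.3%, next 33.2%), from 177 Dcpp UMIs in a gland of the low Muc19 set.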

How the results depend on the processing

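In 7 whole-gland contrasts the Dcpp genes were recomputed under up to 13 alternatives, 261 values in all, of which 3 passed an adjusted p of 0.05 and 29 turned sign, all 29 from values that had not passed. Without a filter on low counts edgeR called 2 Dcpp genes for stage in controls, 1 for stage in double mutants, 3 in the CITE-seq contrast and 3 for stage within the Dcpp-high cluster. The cause was not tested. Scaling by library totals moved the median of all genes by 0.71 over both stages and turned Dcpp2 and Dcpp3 (0.19 and 0.64), Dcpp2 at P90 (0.80) and Dcpp1 by sex (-0.030). The permutation test of log2(CPM + 1) turned Dcpp1, Dcpp2 and Dcpp3 over both stages (0.16, 0.90 and 0.95), Dcpp2 at P40 (0.077), Dcpp1 and Dcpp2 at P90 (0.36 and 1.72) and all 3 genes by sex (-3.49, -5.04 and -4.11). Batch as a covariate turned Dcpp2 at P90 (0.54), Dcpp1 in the interaction (0.054) and the 3 genes by sex (-0.15, -0.10 and -1.20). A fit of the compared groups alone turned Dcpp1 and Dcpp2 at P90 (0.0094 and 1.06), and leaving out the 2 libraries at odds with their labelled sex turned Dcpp3 over both stages (0.036) and Dcpp2 at P90 (0.12).

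With the replicate number as a block, no Dcpp gene was called in the 7 whole-gland and 2 cluster contrasts, and 1 was in CITE-seq (Dcpp1, -6.22, edgeR adjusted p = 0.0195). The block turned Dcpp2 at P90 (0.11), Dcpp2 and Dcpp3 for stage in double mutants (0.81 and 0.98), Dcpp1 in the interaction (0.11) and the 3 genes by sex (-2.99, -4.55 and -3.14). Whether glands of the same number belong together is not given in the labels. Leaving out 1 CITE-seq library at a time gave 0 to 2 called Dcpp genes, with log2 fold changes of Dcpp3 from -7.35 to 6.44. Without the cell richest in Dcpp of each gland, added after the data were seen, both double-mutant CITE-seq libraries held 0 Dcpp1 UMIs, so no fold is given.

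The stage difference in the share of cells in the Dcpp-high cluster passed under 4 other clusterings and did not pass for rich cells (-7.59 points), and with 20 principal components the difference in controls passed as well (-10.9 points). The genotype difference at P90 turned to 0.35 with the Dcpp genes kept in the clustering and to 0.95 for rich cells, and the sex difference to -0.079 at resolution 1.4, -0.51 with the Dcpp genes kept and -0.82 for rich cells. With at least 30 Dcpp UMIs per gland the Dcpp1 share differed by -8.02 points between genotypes at P40 and -27.0 points at P90, which no longer passed. The relation of immune-like cells and gland in the high Muc19 set passed without cells carrying epithelial keratin or Epcam UMIs (r = 0.62, adjusted permutation p = 0.0355) and without the top 5% of cells (0.59, 0.0426), but in neither when 2 glands were left out as well (r = 0.46 and 0.40, permutation p = 0.129 and 0.206). That of Dcpp and Muc19 in the low set turned without 2 glands (-0.10, and -0.10 from all barcodes). Depth limits single genes in the low set, where 3 UMIs stand for up to 4.61 CPM.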
